A study of Mus musculus with 3 samples.

Results

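The proximal stretch of mouse chromosome 17 was described by the Ptbp2 CLIP reads that lie on it. Its members are all reads of chromosome 17 that end below base 39900000 of mm9, a rule of position that uses no read numbers. It took 42964 of the 1727697 deposited reads. The reads came from 3 HITS-CLIP libraries, each from the testes of a different male CD1 mouse (an outbred stock) aged 8 weeks, with no second genotype, treatment or age and no input or control library. HITS-CLIP crosslinks a protein to RNA in tissue, isolates the protein and sequences the RNA fragments that come with it, so background RNA in the isolate is counted too. The file draws each read in red, green or blue. The labels do not tie the colours to animals, so the colours are treated below as 3 classes, taken as the 3 libraries, and values are given for each.

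Ptbp2 is an RNA-binding protein of neurons and male germ cells that binds pyrimidine-rich RNA, often in introns, and regulates alternative splicing. The title of the series concerns a splicing network in spermatogenesis, and these libraries ask where Ptbp2 contacts RNA in testis. The proximal part of chromosome 17 is the home of the t-complex, a region in which variant haplotypes carry inversions, recombine poorly with the standard chromosome and distort their own transmission through sperm. It also holds the major histocompatibility complex, whose class I and class II proteins present peptides to T cells. In RefSeq's gene order on GRCm38, the mesoderm transcription factor gene T comes before the chaperonin gene Tcp1, which is followed by Dnah8, a dynein heavy chain of the sperm tail, and then by the class I genes H2-K1 and H2-D1. These names are background: genes, exons and sequences of mm9 were not used here, no read was assigned to a gene, and the name t-complex could not be checked against the reads, nor could the tissue be checked by marker genes.

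Ptbp2 reads were denser on proximal chromosome 17 than on the rest of the chromosome and on the other autosomes. The proximal stretch, from its first read at 3038308 to its last at 39893566, spanned 36.9 Mb and carried 1166 reads per Mb. Distal chromosome 17, taken from base 40400000 to the end so that the ribosomal RNA copy between both parts was left out, carried 689 reads per Mb over 54.9 Mb. The other 18 autosomes together carried 697 reads per Mb, so distal chromosome 17 lay close to them and the proximal stretch stood above both. Over whole chromosomes, single autosomes ran from 598 reads per Mb on chromosome 13 to 910 on chromosome 11. Whole chromosome 17, with the ribosomal RNA copy, had 900, and chromosome 19 had 842.

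The excess was present in every colour class. Proximal density was 1.65-fold the distal density for red reads, 1.73-fold for green, 1.63-fold for blue and 1.69-fold for all reads. Against the other autosomes the ratio was 1.64 in red, 1.71 in green, 1.61 in blue and 1.67 over all reads. The 3 classes thus moved the same way and by similar amounts. The mean log2 ratio was 0.74 ± 0.05 (SD, n = 3 classes) against the distal part and 0.72 ± 0.05 against the other autosomes. An exact two-sided sign-flip permutation test over the 3 classes gave p = 0.25 for each, which is the smallest p that 3 classes allow. Reads with the same ends and strand occur once over all classes, so the classes are not fully independent. The ratios were lower without same-strand blocks of 500 or more reads, described further on. They were 1.19 and 1.25 with the reads of such blocks left out and the full span kept, and 1.25 and 1.30 with the length of the blocks left out too.

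The stretch was also set beside the beginning of each other autosome, cut at the same base. Stretches further along those autosomes were not compared. Proximal chromosome 17 was the densest of the 19 in all reads and in each class. The others ran from 399 reads per Mb on chromosome 4 through a median of 661 to 986 on chromosome 5. The next after chromosome 5 was chromosome 2 with 975 reads per Mb. When each stretch lost its own fullest 1 Mb bin, proximal chromosome 17 still ranked 1 of 19, at 1029 reads per Mb against 917 for chromosome 5.

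**Figure D1:**
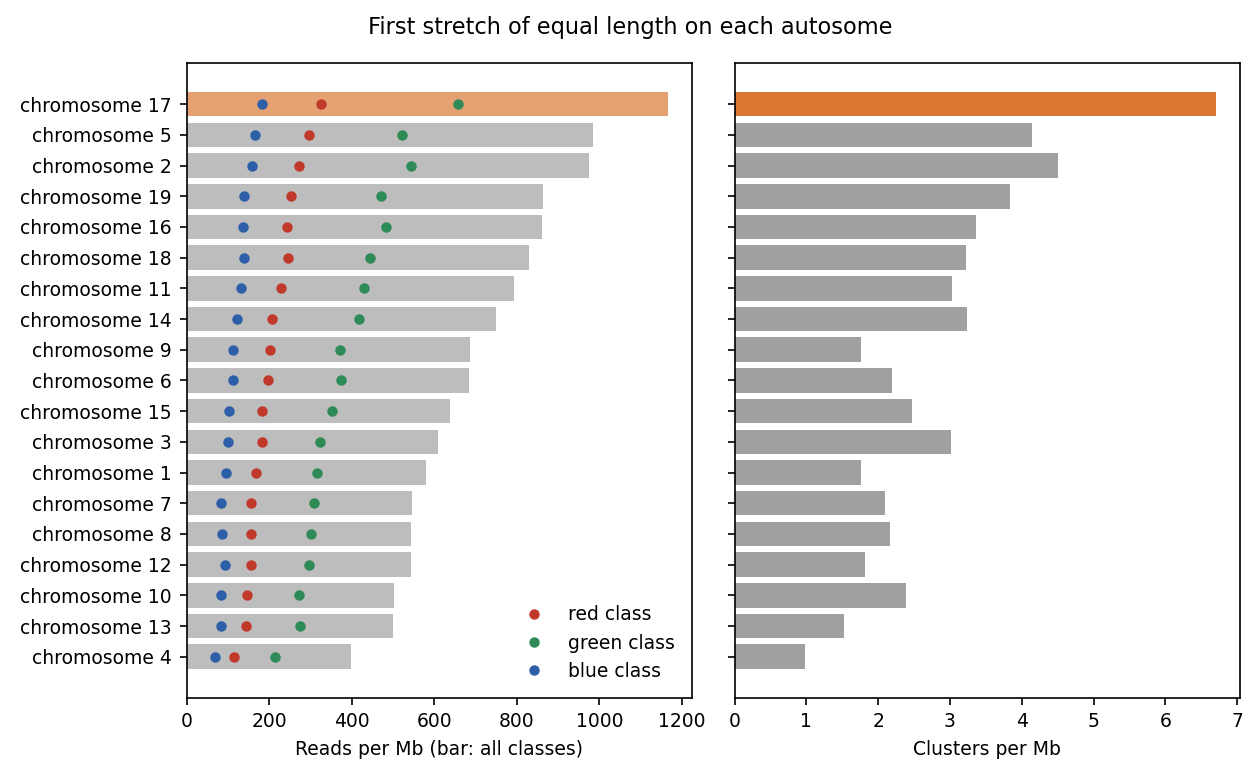
Reads per Mb (left, bars for all reads and points for each colour class) and clusters per Mb (right) on the first stretch of each of the 19 autosomes, all cut at the same base. Proximal chromosome 17 is at the top of both panels, with 1166 reads and 6.70 clusters per Mb, and it leads in each class.

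All classes gave the stretch a similar share of their reads. It was 2.43% of the 493620 red reads (95% Wilson interval 2.39 to 2.48), 2.54% of the 952096 green reads (2.51 to 2.58) and 2.39% of the 281981 blue reads (2.33 to 2.45). The green class made up 56.4% of the reads there (55.9 to 56.8), against 55.1% on distal chromosome 17 (54.6 to 55.6) and 55.1% on the other autosomes. All intervals here express the error of counting and nothing else, because PCR copies of a molecule are not independent. Across the 367 whole windows of 100 kb the classes followed the same profile. Pearson's r of log2(reads + 1) was 0.95 for red with green, 0.93 for red with blue and 0.93 for green with blue, and Spearman's rho was 0.96, 0.93 and 0.94. The windows are neighbours on a chromosome and are not replicates.

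The higher density was spread over many windows and was not limited to the fullest. The median window of 100 kb held 44 reads on proximal chromosome 17, 22 on the distal part and 21 on the other autosomes. The lower quartiles were 12.5, 6.5 and 6 reads, and the 90th percentiles 319, 197 and 196. At least 100 reads were found in 32.2% of the proximal windows, 23.2% of the distal windows and 21.7% of those of the other autosomes. Empty windows were about as frequent in all 3, at 2.45%, 1.83% and 3.22%. The fullest 10% of the windows held 50.1% of the proximal reads, close to the 49.3% and 50.7% elsewhere. By this share of windows, reads were as unevenly spread on proximal chromosome 17 as on the other autosomes, at a higher level. By same-strand blocks of 500 or more reads, described further on, they were not. Such blocks held 38.0% of the proximal reads, against 12.1% on the distal part and 16.8% on the other autosomes.

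**Figure D2:**
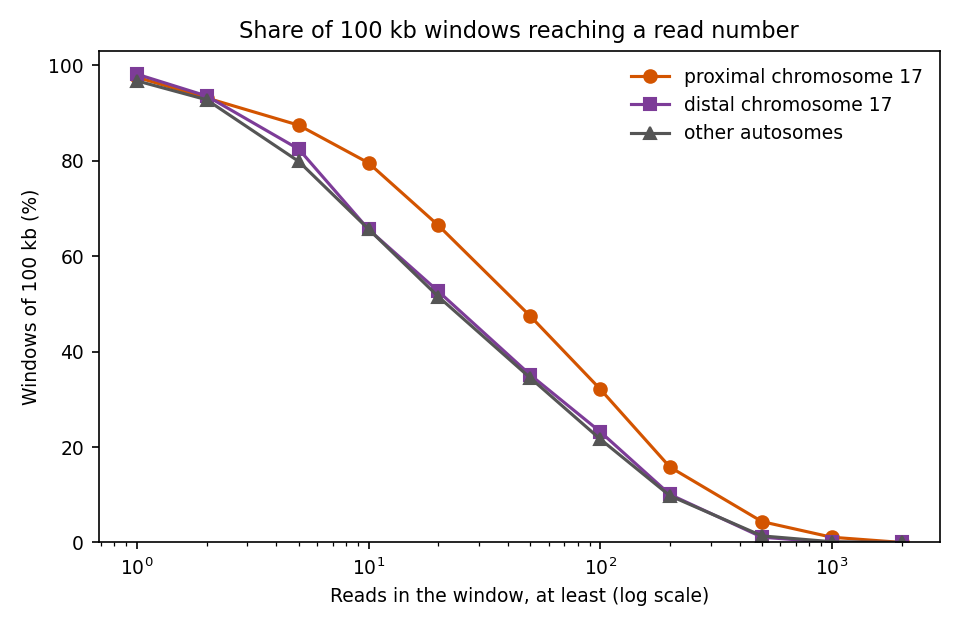
Share of 100 kb windows (vertical axis, percent) that hold at least the number of reads on the horizontal axis (log scale). The proximal curve lies above both others from 5 to 1000 reads, with 32.2% of its windows at 100 reads or more, while the distal part and the other autosomes nearly coincide.

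Along the stretch the reads fell into rich and poor zones. Per bin of 1 Mb there were 69 to 6070 reads, with a median of 783. From 3 to 9 Mb there were 442 reads per Mb and 5 clusters. The zone from 9 to 16 Mb had 1522 reads per Mb and 55 clusters, and that from 16 to 21 Mb had 315 reads per Mb and 5 clusters. The zone from 21 to 36 Mb was the richest, with 1780 reads per Mb, 62.1% of the reads and 177 clusters. From 36 Mb to the end the level fell back to 348 reads per Mb, with 5 clusters. The zone limits were drawn after the bins had been seen. The contrast between zones follows from that choice and was not tested.

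The bin from 30 to 31 Mb was the fullest, with 1640 red, 3544 green and 886 blue reads, 14.1% of the stretch. It ranked first in each class. The bin from 10 to 11 Mb followed with 941 red, 1863 green and 552 blue reads, and the bin from 34 to 35 Mb with 697 red, 1397 green and 378 blue reads. All classes placed these 3 bins in the same order. The lowest bin, from 18 to 19 Mb, had 24 red, 36 green and 9 blue reads. The longest piece with no read on either strand was 413 kb, from 6526613 to 6939720, and the next was 267 kb, from 36708419 to 36975406.

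**Figure D3:**
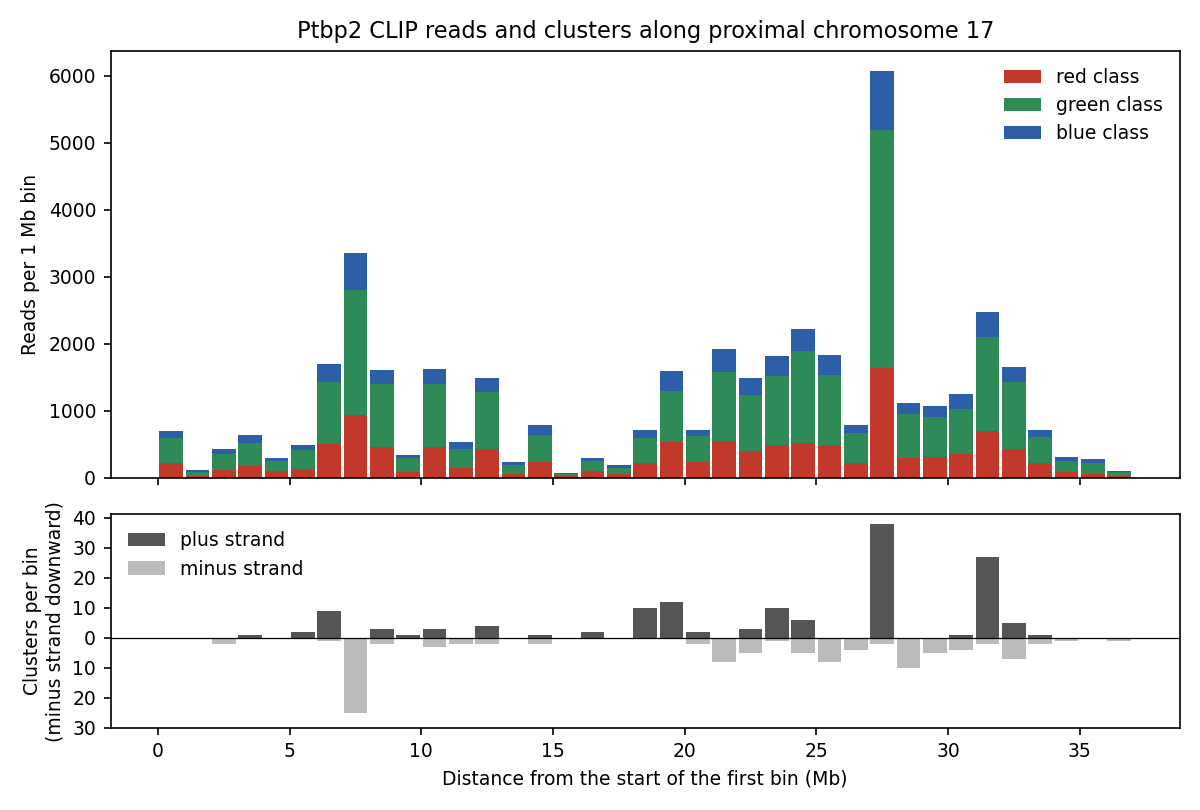
Reads per 1 Mb bin, stacked by colour class (top), and clusters per bin on the plus strand (upward) and the minus strand (downward), against the distance from the start of the first bin in Mb. The fullest bin is at 6070 reads and 40 clusters, 38 of them on the plus strand.

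Reads kept to a single strand locally. A window of 10 kb was considered where it had 10 reads or more, and in the 920 such windows the main strand carried 96.5% of the reads, against 95.2% on the distal part and 95.7% on the other autosomes. The plus strand held 55.8% of the proximal reads (55.4 to 56.3), with the green class at 55.4%, the blue at 55.2% and the red at 57%. It held 42.3% on the distal part. Single bins differed widely, from 1.58% on the plus strand in the bin from 10 to 11 Mb to 93.8% in the bin from 8 to 9 Mb. The bin from 30 to 31 Mb was at 77.9%. Counting each strand once per 10 kb window gave 53.8% plus on the proximal stretch. Read lengths were similar to those elsewhere, with medians of 49, 46 and 47 nt in the red, green and blue class against 48, 45 and 47 nt on the other autosomes.

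Clusters, which mark sites where many fragments pile up, exceeded those elsewhere by a higher ratio than reads did. A cluster was a run of overlapping same-strand reads with at least 10 reads at its summit, the point of deepest overlap, and reads of all 3 classes. Proximal chromosome 17 had 247 clusters, or 6.70 per Mb, against 2.63 on the distal part, where there were 144, and 2.60 on the other autosomes. The ratio was 2.55 to the distal part (95% exact binomial interval 2.07 to 3.16) and 2.57 to the other autosomes (2.26 to 2.92). With a summit minimum of 5 reads the ratio to the distal part was 2.17, and with 20 it was 4.17. A minimum fixed at 10 reads admits more clusters by construction where reads are denser. How much of the higher ratio comes from this was not tested. The stretch made 1.53% of the autosomal span, 2.53% of the autosomal reads and 3.83% of the autosomal clusters (3.39 to 4.32). Its cluster density was also the highest of the first stretches of the 19 autosomes, where chromosome 2 was next with 4.50 per Mb and the median of the others was 2.43. Intervals count clusters as independent, which neighbours within a transcript may not be. Clusters were therefore also called in each class alone, a step added after the data were seen. The red class had 21 proximal, 8 distal and 435 other autosomal clusters, the green class 121, 60 and 2441, and the blue class 7, 0 and 163. Per Mb the proximal stretch was above the other autosomes by 3.04-fold in red, 3.12-fold in green and 2.71-fold in blue, and above the distal part by 3.91-fold in red and 3.00-fold in green. With 0 distal clusters in blue, the difference in clusters per Mb was tested in place of the ratio. It was positive in all 3 classes against both, with p = 0.25 in the exact two-sided sign-flip permutation test for each, again the smallest that 3 classes allow.

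The number of clusters depended on depth and on reads with shared ends. Keeping a single read of each class at each 5' end, called 5' collapse below, left 147 clusters. Doing the same for 3' ends afterwards, called full collapse, left 102. Without the green class, the deepest, there were 67 clusters, and without the red class 156. Within the 247, the green class alone reached 10 reads at the summit in 104, the red class in 21 and the blue class in 5. A tall run usually held all classes. Of 298 runs with at least 10 reads at the summit, 247 had reads of all 3, or 82.9% (78.2 to 86.7), against 79.9% over the 8151 such runs of the whole file outside the mitochondrial chromosome, so the share was near the background. Of the 51 runs that lacked a class, 44 lacked blue, 10 red and 1 green. Near the threshold, 46 runs with all classes had 9 reads at the summit and 51 had 8, while 40 clusters had 10 and 28 had 11.

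The clusters were somewhat taller and wider than elsewhere. Their median summit was 14 reads, against 13 on the distal part and on the other autosomes, and their median width was 127 nt, against 104 and 118 nt. A summit of 20 or more was reached by 70 of the 247, or 28.3% (23.1 to 34.3). On the distal part it was reached by 25 of 144, or 17.4%, and on the other autosomes 18.6% (17.7 to 19.6). Clusters held 13.9% of the proximal reads (13.6 to 14.2), against 7.77% on the distal part and 8.22% on the other autosomes. After 5' collapse these shares were 8.72%, 4.73% and 4.90%, after full collapse 5.80%, 2.37% and 2.81%, and without the green class 6.15%, 2.69% and 3.11%. The level thus moved with the setting, and the proximal share was the highest in each of them. Denser reads overlap more often and reach a fixed summit minimum more often by construction, and this holds in each setting. How much of the difference in these shares comes from density was not tested. Fewer reads stood alone: 31.6% of the proximal reads had no overlapping read of the same strand, against 39.4% and 38.3%. Only 2 reads lay on the opposite strand within the bounds of the 247 clusters. Of the clusters, 141 were on the plus strand and 106 on the minus strand.

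The highest summit belonged to a plus-strand cluster from 30765949 to 30766275, where 71 reads overlapped. Its summits in the single classes were 4 in red, 62 in green and 7 in blue, so this height was mostly green. Without the green class its summit was 10 reads. After 5' collapse it was 37 and after full collapse 15.

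The second cluster, on the plus strand from 30913384 to 30913677, had 70 reads at its summit. Here the classes were more even, with summits of 25 in red, 29 in green and 16 in blue. It had 30 red, 54 green and 21 blue reads, near the mix of the stretch. It was also the tallest of the 12 after either collapse, with 49 and 29 reads. The third, from 13671338 to 13671529 on the minus strand, had a summit of 67 reads, with 21 in red, 36 in green and 12 in blue. It stood alone, with no other cluster of its strand within 10 kb.

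A pair of clusters lay 12 nt apart on the plus strand, from 26407047 to 26407173 with a summit of 51 reads and from 26407186 to 26407304 with a summit of 40. The class summits were 10, 37 and 4 in the former and 10, 26 and 4 in the latter, in the order red, green and blue. Both pieces therefore had the same order of classes. Another close pair, from 30823915 to 30824326 and from 30824350 to 30824493, had summits of 47 and 36 reads. The wider of these had 28 red, 68 green and 15 blue reads.

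The remaining 5 of the 12 highest had summits of 36 to 45 reads. On the plus strand, the cluster from 30770416 to 30770869 had summits of 21 in red, 21 in green and 3 in blue, with 45 over all. The plus-strand cluster from 9048714 to 9048817, which stood alone, had 14, 25 and 5, with 44 over all. The plus-strand cluster from 30850283 to 30850424 had 7, 31 and 3, with 41 over all. Of the 2 on the minus strand, that from 24407209 to 24407306 had 3, 34 and 4, with 41 over all. Its share of green reads, 82.9%, was the largest of the 12. The other, from 24486459 to 24486622, had 10, 16 and 10, with 36 over all. Its share of green reads, 38.3%, was the smallest of the 12. None of the 12 had a read of the opposite strand within its bounds. Across the 12, the median summit of 44.5 reads became 29.5 after 5' collapse, 19.5 after full collapse and 16.5 without the green class.

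**Figure D4:**
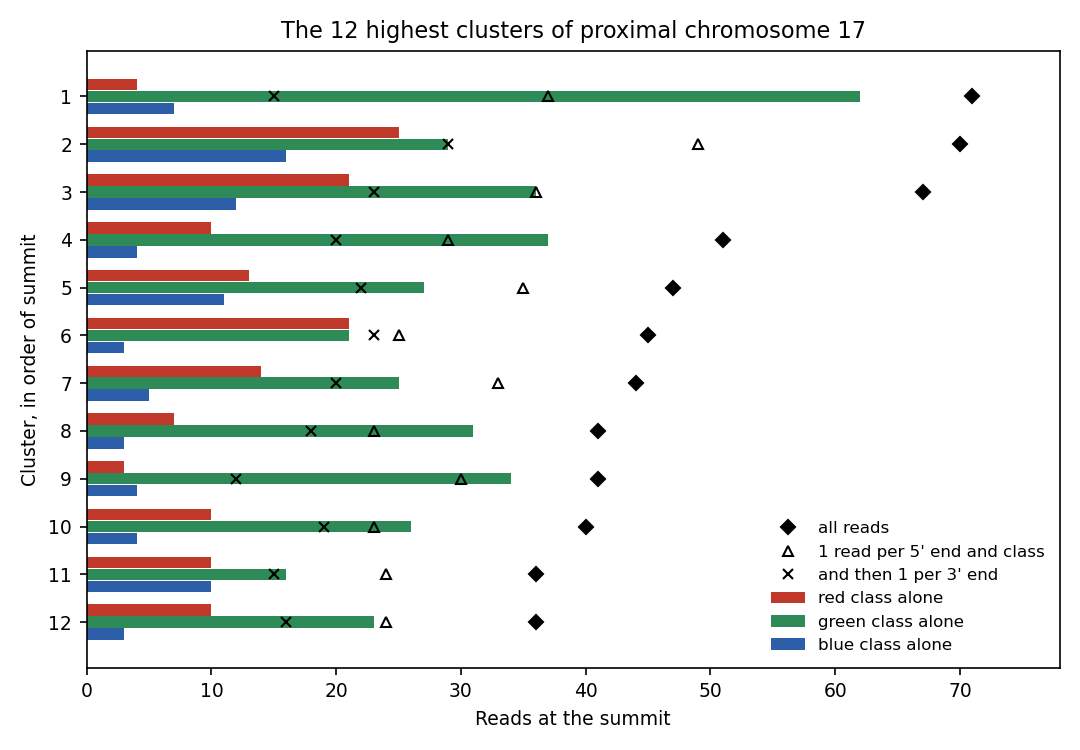
Summits of the 12 highest clusters in reads: all reads (diamonds), after 5' collapse (triangles), after full collapse (crosses) and each colour class alone (bars). Cluster 1 reaches 71 reads of which the green class alone gives 62, while cluster 2 reaches 70 with 25, 29 and 16 in red, green and blue.

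Over all 247 clusters the class mix followed the depth of the libraries. The median cluster was 28.6% red, 56.3% green and 13.5% blue. Green was the commonest class in 196 clusters, red in 28 and blue in 8, and the rest were tied. In 12 clusters at least 80% of the reads were green. In the median cluster 17.6% of the reads shared the commonest 3' end.

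A larger share of the clusters sat in groups than on the distal part or on the other autosomes. Clusters of a strand were joined where 10 kb or less lay between them, and then 68 of the 247 stood alone, or 27.5% (22.3 to 33.4), against 47.2% (39.2 to 55.3) of the distal clusters and 45.9% (44.7 to 47.2) on the other autosomes. Groups of 10 or more held 44 proximal clusters, or 17.8% (13.5 to 23.1), in 3 groups. On the distal part they held 0 of 144 (0 to 2.60), and on the other autosomes 7.55% (6.92 to 8.25) in 29 groups. Of the 3 proximal groups, only the largest kept 10 or more clusters within its bounds after 5' collapse or full collapse. Groups elsewhere were not followed through the collapses. With joining up to 5 kb, proximal groups of 10 or more held 31 clusters, and with joining up to 20 kb 73. The intervals take clusters as independent, which members of a group are not. Clusters enter this share 10 or more at a time, so the interval at 0 of 144 does not bound it. Clusters were also denser here, at 6.70 per Mb against 2.63 and 2.60, and denser clusters more often lie within 10 kb. Grouping beyond that density was not tested.

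The largest group was made of 24 clusters on 44.8 kb of the plus strand, from 34540820 to 34585622. It had 387 red, 679 green and 198 blue reads, and 4 reads on the minus strand. Clusters took up 59.1% of these reads and were separated by a median of 1383 nt. Its highest cluster, from 34558209 to 34558445, had a summit of 31 reads. It also contained the 2 widest clusters of the stretch, 570 nt from 34567099 to 34567668 and 540 nt from 34567683 to 34568222, each with a summit of 17 reads; the latter was named after its values were seen. The group had 18 clusters after 5' collapse and 15 after full collapse.

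The second group was far more compact. It held 10 clusters in 2.85 kb on the plus strand, from 21954077 to 21956929, with 82 red, 140 green and 46 blue reads and none on the minus strand. Gaps between neighbours had a median of 34 nt, and 80.6% of the reads were in clusters. The read density was 93.9 per kb, against 28.2 per kb in the largest group. Its highest cluster, from 21956817 to 21956929, had a summit of 23 reads. After 5' collapse 6 of the clusters in this group were left, and after full collapse 4. The third group also had 10 clusters, on the minus strand from 31391916 to 31411627, with 136 red, 289 green and 74 blue reads. Of its 10 clusters, 3 were left after 5' collapse and 2 after full collapse. Several of its summits were at the minimum of 10 reads, where the loss of a read at the summit can remove a cluster. Clusters with summits of 14, 11 and 14 reads also fell below the minimum after 5' collapse, to 9, 9 and 8.

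There were 10 groups of 5 or more clusters in all, with 87 clusters. A group of 8 lay on the plus strand from 22647480 to 22658794 and reached 33 reads at its tallest summit. The 2 groups of 7 lay on the minus strand from 10882825 to 10897248 and on the plus strand from 30975309 to 30998433, each with a highest summit of 20. A group of 6, from 30822776 to 30830223 on the plus strand, held the close pair with summits of 47 and 36. Groups of 5 were found on the minus strand from 10929721 to 10948756, and on the plus strand from 26858282 to 26874556 and from 30789765 to 30804489. Several groups thus lay close together around 10.9 Mb and at 30.8 to 31.0 Mb. In each of these places they were parts of a single same-strand block of reads, described next.

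Reads were joined into same-strand blocks to see how far such zones extend, with gaps of up to 5 kb bridged, a rule chosen after the data were seen. The blocks are stretches of reads and were not matched to genes. On proximal chromosome 17, 15 blocks held at least 500 reads, or 0.407 per Mb, against 0.109 per Mb on the distal part and 0.145 on the other autosomes. They held 38.0% of the proximal reads, against 12.1% and 16.8% for such blocks elsewhere. Of the 247 clusters, 139 lay in them. Blocks were picked for many reads, and no share of clusters in blocks elsewhere is set beside this count. The 15 blocks spanned 34.0 to 382 kb, 7 of them on the plus strand and 8 on the minus strand. Reads of the opposite strand made 0.754% of all reads within their bounds. With the reads of such blocks taken out and the full span kept, the proximal stretch had 723 reads per Mb, against 606 on the distal part and 579 on the other autosomes. The blocks covered 2.14 Mb there, 0.666 Mb on the distal part and 41.5 Mb on the other autosomes. With their length and the reads of both strands within it taken out, the densities were 764, 612 and 588 reads per Mb.

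The largest block ran for 257 kb on the plus strand, from 30763571 to 31020251. It held 985 red, 2119 green and 530 blue reads, which is 0.200%, 0.223% and 0.188% of the reads of each class. Of all same-strand blocks of the 19 autosomes it had the most reads, and it ranked 2, 1 and 2 in the red, green and blue class. It was also the largest after 5' collapse, at 2935 reads, and after full collapse, at 2620. The rank depended on the joining distance, since its largest piece ranked 3 with gaps of up to 2 kb and the block ranked 9 with gaps of up to 10 kb. On the minus strand within its bounds there were 26 reads.

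This block held 33 clusters and 6 of the 12 highest summits of the stretch. Clusters contained 32.0% of its reads (30.5 to 33.5), and the rest covered the block thinly, with a median of 19 reads per 2 kb and 1 empty bin among 129. The highest cluster lay 2.38 kb from its 5' end. The cluster with a summit of 45 lay at 6.85 kb and the close pair at 60.3 and 60.8 kb, in the fullest bin with 261 reads. The clusters with summits of 41 and 70 lay at 86.7 and 150 kb. Cut into 5 equal parts from its 5' to its 3' end, the block held 987, 765, 661, 595 and 626 reads. The level was highest in the part nearest the 5' end, and reads covered the whole block.

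The second block lay on the minus strand from 10588545 to 10970661, over 382 kb. It held 730 red, 1418 green and 418 blue reads, or 0.148%, 0.149% and 0.148% of each class. It ranked 5 among all autosomal blocks, also after either collapse. Its reads were more dispersed, at 6.72 per kb against 14.2 in the largest block. It had 22 clusters with 15.3% of its reads and a highest summit of 23. The first of its 5 equal parts held 992 reads, and the others 482, 351, 579 and 162. This block was therefore long, evenly shared between the classes and low in summits.

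The third block, on the plus strand from 34536707 to 34599176, contained the group of 24 clusters. With 1526 reads in 62.5 kb it was the most densely read of the 15, at 24.4 per kb, and clusters held 49.0% of the reads. It had 444 red, 851 green and 231 blue reads, or 0.0899%, 0.0894% and 0.0819% of each class. The middle of its 5 equal parts was the fullest, with 533 reads. By contrast the fourth block, from 30349505 to 30712374 on the minus strand, spread 1225 reads over 363 kb with a single cluster, whose summit was 11. It held 0.0646% of the red, 0.0796% of the green and 0.0525% of the blue reads, a wider spread between classes than in the blocks above. Long blocks thus ranged from 1.39% to 49.0% of their reads in clusters, and 11 of the 15 had more reads in the first of the 5 parts than in the last. Some of these differences were small, and no count for blocks elsewhere is set beside them.

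**Figure D5:**
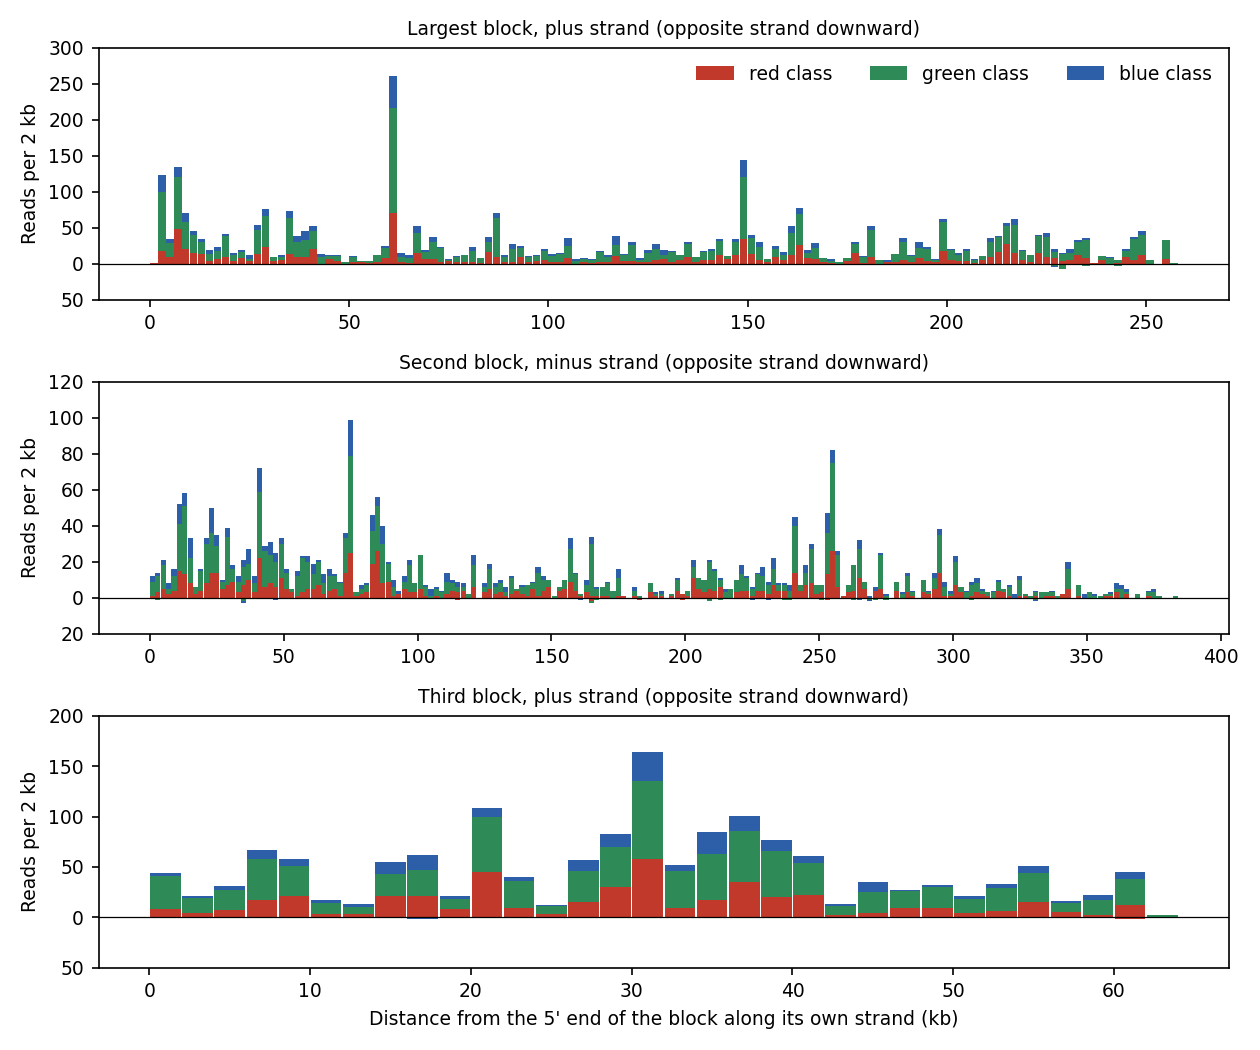
Reads per 2 kb along the 3 largest same-strand blocks, stacked by colour class, against the distance from the 5' end of the block in kb, with reads of the opposite strand drawn downward. The largest block has its peak of 261 reads at 60 kb, the second is lower with 992 of its 2566 reads in the part nearest the 5' end, and the third is filled throughout; the opposite strand is nearly empty in all 3.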

How the data were processed

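Per the labels' protocols, the libraries were made by HITS-CLIP and the first bases sequenced belong to the 5' linker. The mapper was Bowtie and the build mm9, per the submitters' processing notes. Its version, settings and handling of multiply mapping reads were not given in the sources used here. What the authors deposited is a single list of reads with both ends, strand and colour. Its deposited score column is 0 throughout all 1727697 lines and went unused. No lines share chromosome, ends and strand (0 repeats), so identical reads had been collapsed, which lowers tall summits. Reads were 20 to 74 nt long. The depth was 493620 red, 952096 green and 281981 blue reads, and intervals are at 95%.

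Computations used Python 3.11.15, numpy 2.4.6, pandas 2.3.3 and scipy 1.17.1, and were tested on simulated data. Density is reads over the span from the first to the last read. The members, lists and rules were chosen with earlier results of these data known. Named clusters are the 12 highest summits, the widest cluster and each group of 5 or more. The gene and marker lists of the design need an annotation of mm9 and were not analysed here. Alternatives kept 1 read per end, left out a class, or changed the summit minimum, the classes needed, the length measure or the joining distance.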

Additional observations from a re-analysis of the deposited data

Results flagged for a closer look

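The stretch of chromosome 17 between base 39900000 and base 40400000, which holds the ribosomal RNA copy and was kept out of both parts, carried 2211 reads and 12 clusters and made up 2.66% of the chromosome's reads. It was reported here because it lies outside the comparisons, and no test was made on it.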

How the results depend on the processing

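The ratios of read and cluster density stayed above 1 under every setting run. After 5' collapse the share of all reads was 2.45%, clusters numbered 147 and held 8.72% of reads, and the median named summit was 29.5. After full collapse these were 2.43%, 102, 5.80% and 19.5, cluster density ratios were 3.80 to the distal part and 3.51 to the other autosomes, and the green share was 55.7%. Leaving out 1 class at a time gave shares of 2.42% to 2.51%, read density ratios of 1.64 to 1.71 and 1.63 to 1.69, 67 to 223 clusters, cluster ratios of 2.81 to 3.69 and 2.70 to 3.34, 6.15% to 13.5% of reads in clusters and median named summits of 16.5 to 38.5; the lowest number of clusters came without green, and without red it was 156. A summit of at least 5 gave 650 clusters with 21.8% of reads and a ratio to other autosomes of 2.09, and at least 20 gave 70 with 6.45% and ratios of 4.17 and 3.91. Requiring 2 of 3 classes put 15.5% of reads in clusters. Read density ratios to the distal part and the other autosomes were 1.57 and 1.51 with occupied 10 kb windows as length, 1.49 and 1.48 without the fullest 1 Mb bin (cluster ratio to other autosomes 2.22), 1.36 and 1.38 over reads that overlap no other, and, added after seeing the data, 1.19 and 1.25 without the reads of blocks of 500 or more, and 1.25 and 1.30 without their length as well. The median window was 78.4 reads in 1 Mb windows scaled to 100 kb and 46.5 over windows with a read. Counting each strand once per 10 kb window gave 53.8% plus. Joining up to 5 kb put 31 and up to 20 kb 73 clusters in groups of 10 or more. In all, 43 values moved beyond their limits and 30 stayed within them. The limits were the interval or spread of each result or, for numbers of clusters and summits, 1.5 times. The value for joining up to 5 kb was among the 30. Fewer reads admit fewer clusters by construction; the cause of the other shifts was not tested. With 1 group there is no replicate block between groups; proximal and distal values were compared within each class. Depth limits the blue class most.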
